A study of Mus musculus with 10 samples.

Results

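DNA damage response and Fanconi genes were examined as RNA levels in sorted mouse hematopoietic stem cells (HSCs), the marrow cells that renew themselves and give rise to all blood lineages. The set is a given list of 38 genes of damage signaling, homologous recombination, the Fanconi pathway with Usp1 and Wdr48, end joining, and mismatch and excision repair. All 38 were found among the 52096 genes of the deposited table by matching Ensembl identifiers to gene symbols. There were 5 libraries labelled Nup214fl/+ (FL), from mice with a floxed Nup214 allele and no Cre, and 5 labelled Nup214fl/+,Tie2-Cre (HET), with the same floxed allele and Cre under the Tie2 promoter, which is active in endothelial and blood lineages. All 10 libraries thus carry the floxed allele, no group carries Cre without it, and effects of Cre and of the deletion cannot be told apart. The cells were bone marrow cells sorted as CD48-, CD150+ and LSK, the marrow fraction without lineage markers that is positive for Sca-1 and Kit. The labels state neither the age of the mice nor whether a library came from 1 animal, and p-values therefore reflect the spread among these libraries, which may be technical. Values are FPKM, fragments scaled per kilobase of transcript and by mapped fragments, which corrects for transcript length and library size. The comparison asks how transcript levels of these genes in HET libraries relate to those in FL libraries.

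As background, a break in DNA is sensed by the MRN complex (Mre11, Rad50 and Nbs1), which recruits the kinase ATM, while ATR responds to single-stranded DNA at stalled forks, and the kinases CHK1 and CHK2 pass the signal to the cell cycle. Breaks are then repaired by homologous recombination, which copies an intact sister chromatid and is used after replication, or by end joining, which religates the ends and is the main route in quiescent cells such as most HSCs. The Fanconi pathway removes crosslinks between the strands: a core complex attaches ubiquitin to FANCD2 and FANCI, and the protease USP1, activated by its partner WDR48 (UAF1), takes it off again. Loss of Fanconi genes in people causes bone marrow failure.

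Nup214, the targeted gene, was lower in HET libraries. It encodes a nucleoporin of the cytoplasmic side of the nuclear pore. It measured 65.8, 55.3, 52.2, 43.9 and 30.0 FPKM over FL 1 to FL 5, against 31.2, 9.74, 17.4, 16.3 and 9.13 over HET 1 to HET 5. Libraries of FL averaged 49.4 ± 13.4 FPKM (SD, n = 5) and those of HET 16.8 ± 8.89, with an exact two-sided permutation p of 0.0159, where 0.00794 was the smallest possible. In limma its log2 fold change was -1.59 (SE 0.31, adjusted p = 0.472). FL 5 and HET 1 were the libraries in which the groups met. On the first principal component of all tested genes (42.6% of the variance), FL 5 scored 33.3 beside HET 2 to HET 5 (28.5 to 41.2), and HET 1 scored -46.4 beside FL 1 to FL 4 (-42.4 to -19.6). The same pair of libraries stood apart in the repair genes. FL 5 was the lowest FL library for 32 of the 38 members, and HET 1 was the highest HET library for 29 of 38. These counts are not separate from the library-wide shift. The median deviation of tested members was -0.19 in FL 5 and 0.25 in HET 1 (log2 scale), against -0.17 and 0.30 for all tested genes. By these values the labels of FL 5 and HET 1 are in doubt, and single genes differed in whether they went with the labels. The B cell marker Ighm had no overlap, with FL 5 at 1620 FPKM and HET 1 at 3713, where 0.506% of all tested genes had none. Igkc, a marker of the same list, overlapped, with FL 3 at 9338 FPKM and HET 2 at 5963. S100a8, a neutrophil marker, was at 402 in HET 1, above every FL library, while FL 5 (167) lay within the HET range. The median-ratio scaling factor was 0.876 in FL 5 and 1.27 in HET 1. It ran from 1 to 1.3 in FL 1 to FL 4 and from 0.782 to 1.01 in HET 2 to HET 5. The labels were kept as given, and all fold changes depend on them. Whether they are right, or library scale set this pair apart, was not tested. Results are given with all 10 libraries and, where they rest on this pair, without FL 5 and HET 1. The marker check of the label was mixed. Of the HSC genes, Procr (3.45 ± 1.22 FPKM in FL and 4.06 ± 1.99 in HET) and Slamf1, which encodes CD150 (3.81 ± 1.06 and 3.97 ± 1.02), were present in every library. Fgd5, another HSC gene, reached 1 FPKM in only 2 libraries (0.508 ± 0.162 in FL and 0.722 ± 0.428 in HET). Cd48, the transcript of the protein selected against, held 85.1 ± 11.2 and 84.7 ± 22.6 FPKM, and the progenitor gene Mpo 8249.7 ± 1147 and 9573 ± 1937. In bulk libraries such as these, fewer cells of a type and less RNA per cell cannot be told apart.

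Per kilobase, levels over all 10 libraries ran from H2afx at a mean of 371 FPKM through Parp1 (76.9), Xrcc6 (67.4) and Xrcc1 (50.4) down to Brca1 (4.93), Prkdc (4.59), Fanci (4.58), Ercc5 (4.55), Fancm (4.31) and Lig4 (0.804). Means from Prkdc to Fancm lay closer together than the SD of these genes within a group. Usp1 (28.3) was in the fifth place. Atm (5.99) and the Fanconi genes other than Usp1 and Wdr48 (4.31 to 10.3) were in the lower part of the order.

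Most of the repair genes had a lower mean in HET libraries, and no member passed the test. A gene was tested where it had at least 1 FPKM in at least 5 of the 10 libraries. Of the members 37 were tested, and Lig4 was not. On the log2(FPKM + 1) scale, which understates the changes of low genes, 32 of 37 had a lower mean in HET and 5 a higher one, against 77.3% lower among all 13041 tested genes. Their median log2 fold change was -0.21, against -0.17 for all tested genes. By limma with Benjamini-Hochberg adjustment over all tested genes, 0 of 37 members passed at 0.05, as did 0.0% of all genes. At an unadjusted p under 0.05 there were 6 members lower and 1 higher, where 8.95% of all genes were lower and 1.44% higher by that measure. The values of FL and HET overlapped for all 38 members (0.506% of all tested genes had groups without overlap). Under median-ratio scaling of the columns, which moved the median of all genes to 0.02, 21 of 37 members were lower (46.5% of all genes) and their median was -0.02. In each library the median deviation of the members lay within 0.10 of the median deviation of all tested genes. Of the 37 members, 28 to 33 were above their 10-library median in FL 1 to FL 4 and 31 in HET 1, against 4 in FL 5 and 3 to 13 in HET 2 to HET 5.

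**Figure D1:**
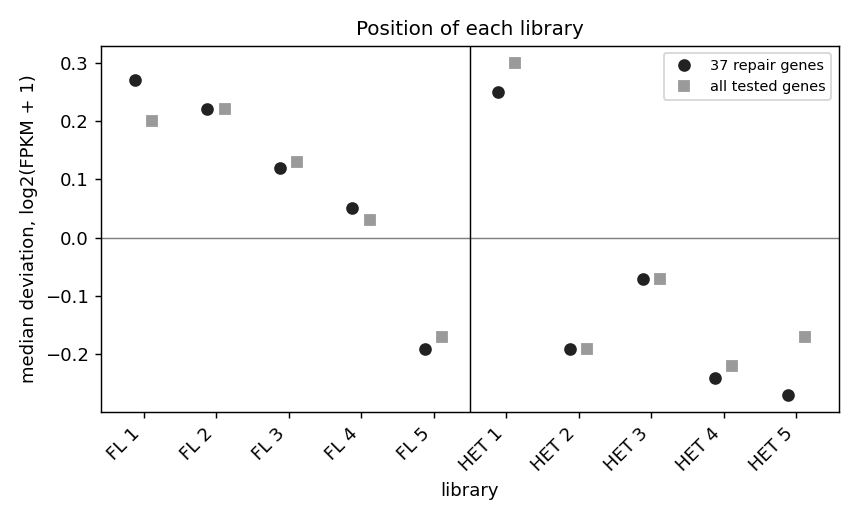
Median deviation of each library from the 10-library median, on the log2(FPKM + 1) scale, for the 37 tested repair genes (circles) and for all tested genes (squares). FL 5 lies below 0 with HET 2 to HET 5, HET 1 lies above 0 with FL 1 to FL 4, and circles and squares stay within 0.10 of each other in each library.

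**Figure D2:**
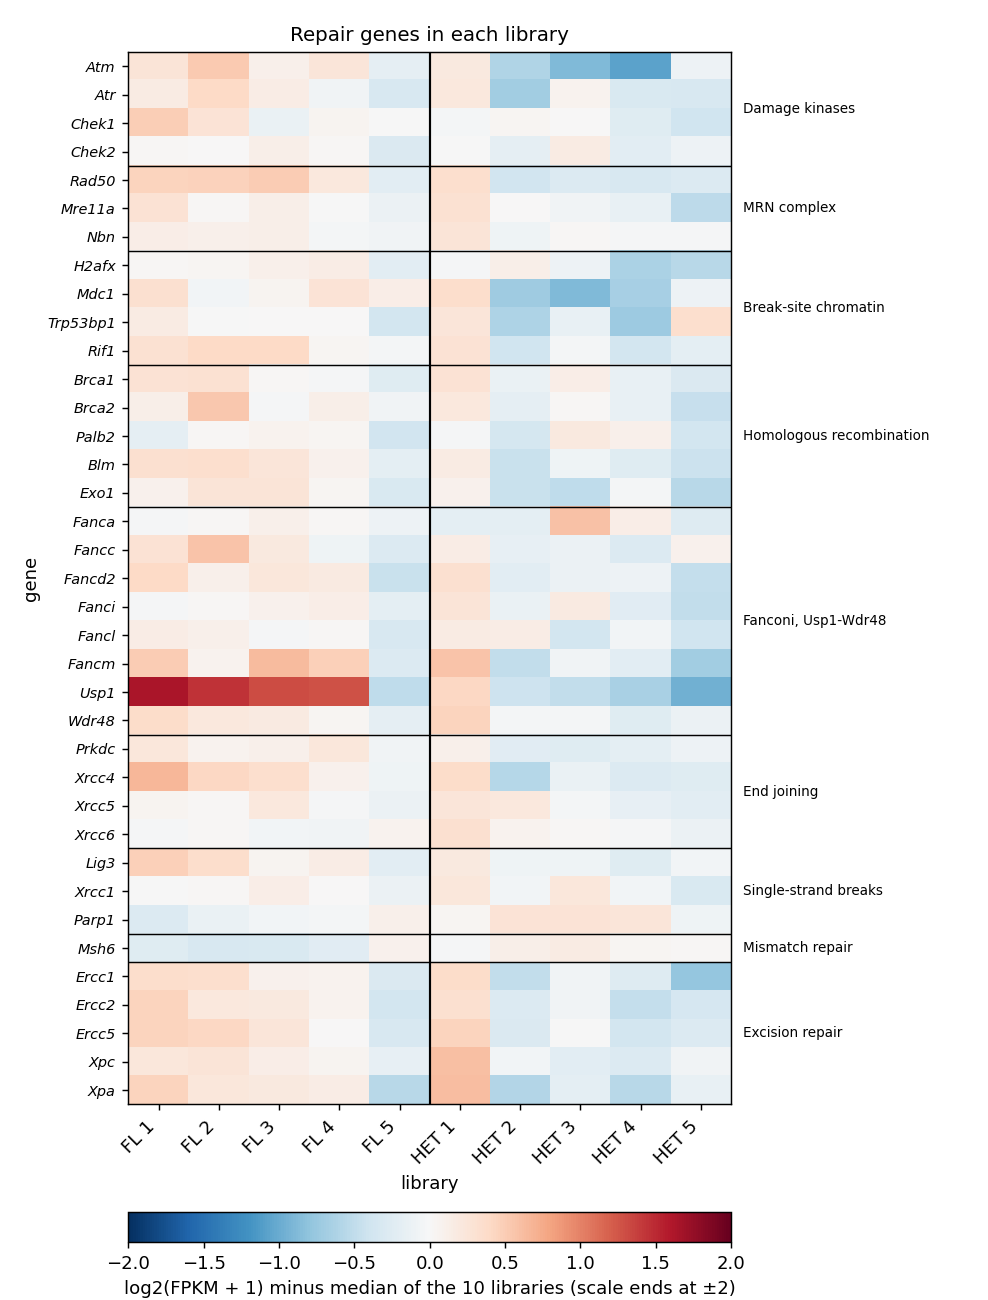
Each tested repair gene (rows, by role) in each library (columns), as log2(FPKM + 1) minus the gene's median over the 10 libraries. FL 1 to FL 4 and HET 1 are mostly above the median (red) and FL 5 and HET 2 to HET 5 mostly below (blue), with Usp1 the strongest contrast, while Msh6 and Parp1 are lower in most of FL 1 to FL 4.

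Without FL 5 and HET 1 the count changed from 0 to 22 of 37 members, 20 lower and 2 higher. In that setting 45.7% of all tested genes passed, 42.2% lower and 3.44% higher. The members' median was -0.36 there, against -0.33 for all tested genes. These calls rest on leaving out the pair of libraries that stood apart, and they are given below beside the values from all 10 libraries. The pair was picked from the same values that are tested, because it fell between or across the groups. The p-values of this setting therefore describe the remaining libraries and cannot decide whether a gene differed by genotype. The same holds without FL 5 alone. Without FL 5 alone, 1 member passed, Usp1, where 3.14% of all tested genes did, 2.91% lower and 0.23% higher. With sample quality weights, which were lowest for FL 5 (0.236) and HET 1 (0.149), 23 members passed, 21 lower and 2 higher, against 52.7% of all tested genes, 47.8% lower and 4.87% higher. The weights were set from the same values, and their p-values have the same limit.

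**Figure D3:**
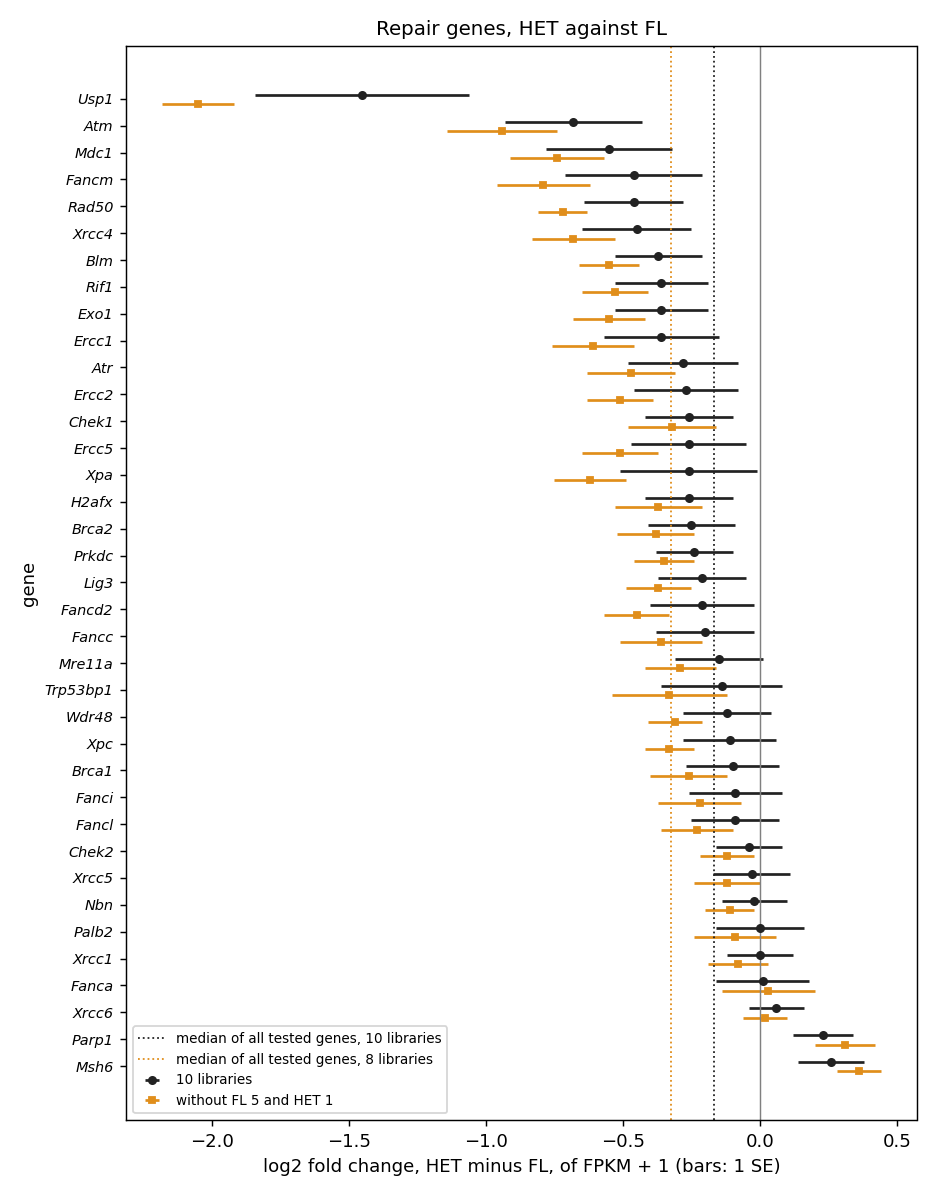
Log2 fold change of each tested repair gene, HET minus FL, with bars of 1 SE, from all 10 libraries (circles) and without FL 5 and HET 1 (squares). Dotted lines mark the median of all tested genes in each setting. Usp1 is at -1.45 and -2.05, most other genes scatter around the dotted lines, and Parp1 and Msh6 lie above 0 in both.

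Promoter sequence is shown for 6 members, 4 of the 6 with a lower mean and an unadjusted p under 0.05 (no window was at hand for Usp1 and Rad50) and the pair with the largest positive fold changes, so that the letters around the starts of genes with opposite directions can be read side by side. RefSeq windows (GRCm38.p6) from 250 bases before to 50 bases after the start were available for 29 of the 38 members. They were searched on both strands for an E2F-type element (TTTGGCGC, TTTCCCGC, TTTCGCGC or TTTGCCGC), bound by the E2F factors of S phase genes, and for CCAAT, the element of NF-Y. No form of either element overlaps the whole of the other. An E2F-type element was in 5 of 30 member windows and in 2.26% of all 32851 windows, and CCAAT was in 17 of 30 and in 37.4%. The 250 bases before the start are printed 5′ to 3′, with these elements in capitals. Starts are those of RefSeq. By GENCODE, used here for gene coordinates, Atm and Blm reach to 53536740 and 80535119, inside their printed windows. The Atm window is chr9:53536672-53536921 on the minus strand, Mdc1 is chr17:35841248-35841497 on the plus strand, Blm is chr7:80534999-80535248 on the minus strand, Xrcc4 is chr13:90089609-90089858 on the minus strand, Msh6 is chr17:87974800-87975049 on the plus strand and Parp1 is chr1:180568641-180568890 on the plus strand.
Atm: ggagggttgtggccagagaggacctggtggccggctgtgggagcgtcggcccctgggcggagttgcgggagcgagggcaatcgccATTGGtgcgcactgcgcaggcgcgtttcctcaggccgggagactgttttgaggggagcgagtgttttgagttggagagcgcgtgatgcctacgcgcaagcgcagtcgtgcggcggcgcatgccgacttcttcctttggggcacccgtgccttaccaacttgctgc
Mdc1: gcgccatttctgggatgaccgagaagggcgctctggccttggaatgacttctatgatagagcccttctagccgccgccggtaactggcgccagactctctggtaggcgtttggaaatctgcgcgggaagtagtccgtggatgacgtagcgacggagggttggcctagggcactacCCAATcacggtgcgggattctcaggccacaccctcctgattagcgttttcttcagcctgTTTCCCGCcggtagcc
Blm: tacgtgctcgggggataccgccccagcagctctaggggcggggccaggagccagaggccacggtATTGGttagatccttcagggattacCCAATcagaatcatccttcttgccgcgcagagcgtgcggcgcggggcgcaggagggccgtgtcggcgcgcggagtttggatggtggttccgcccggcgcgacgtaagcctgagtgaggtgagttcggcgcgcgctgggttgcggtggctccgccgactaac
Xrcc4: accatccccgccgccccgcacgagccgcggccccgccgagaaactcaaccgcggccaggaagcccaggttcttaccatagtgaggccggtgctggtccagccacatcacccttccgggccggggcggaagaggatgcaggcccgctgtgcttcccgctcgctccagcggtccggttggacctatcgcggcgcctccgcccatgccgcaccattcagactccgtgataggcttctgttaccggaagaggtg
Msh6: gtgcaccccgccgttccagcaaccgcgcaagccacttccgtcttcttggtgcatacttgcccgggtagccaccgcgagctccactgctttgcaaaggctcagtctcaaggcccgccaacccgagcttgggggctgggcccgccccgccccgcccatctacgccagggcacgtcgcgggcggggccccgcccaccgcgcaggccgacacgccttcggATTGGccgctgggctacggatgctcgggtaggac
Parp1: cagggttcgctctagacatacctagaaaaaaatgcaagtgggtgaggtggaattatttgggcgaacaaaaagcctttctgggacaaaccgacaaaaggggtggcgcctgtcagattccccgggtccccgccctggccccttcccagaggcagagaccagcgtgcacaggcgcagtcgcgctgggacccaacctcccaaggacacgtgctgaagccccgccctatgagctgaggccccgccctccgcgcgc
All 6 were rich in G and C, from 59.2% in Mdc1 to 70.8% in Msh6. Mdc1 held TTTCCCGC starting 16 bases before the start, and Msh6 held the same letters 15 bases after it, outside the printed part. Brca2, Chek2 and Xrcc6 held the reverse form GCGGGAAA at 168, 152 and 46 bases before the start. Atm and Blm held CCAAT elements and no E2F-type element, Mdc1 and Msh6 held both, and Xrcc4 and Parp1 held neither in this window. The E2F-type element was thus present both in Mdc1, with a lower HET mean, and in Msh6, with a higher one. A match describes letters and not a site in use.

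Among the damage kinases, all 4 had a lower mean in HET (77.3% of all tested genes did), with a median log2 fold change of -0.27. Under median-ratio scaling, where 46.5% of all genes were lower, 3 of 4 were. Atm encodes the kinase that responds to double-strand breaks, at chr9:53439149-53536740 on the minus strand (mm10). Over FL 1 to FL 5 it measured 7.81, 9.52, 6.83, 7.67 and 5.47 FPKM, against 7.43, 3.85, 2.98, 2.49 and 5.86 over HET 1 to HET 5. HET 2, HET 3 and HET 4 were below every FL library, and HET 1 and HET 5 lay within the FL range. The log2 fold change of Atm was -0.68 (SE 0.25, limma adjusted p = 0.472). Without FL 5 and HET 1 it was -0.94, with an adjusted p of 0.00404. Chek1, the effector kinase downstream of ATR, measured 11.7, 9.93, 7.22, 8.37 and 7.93 FPKM over FL 1 to FL 5, against 7.75, 8.27, 8.12, 6.61 and 5.88 over HET 1 to HET 5. FL 1, FL 2 and FL 4 were above every HET library, FL 3 and FL 5 lay among the HET values, and Chek1 passed in no alternative. Chek1 had a log2 fold change of -0.26 (SE 0.16, limma adjusted p = 0.498). Atr held 9.45 ± 1.91 and 7.72 ± 2.09 FPKM and passed without FL 5 and HET 1 (-0.47, adjusted p = 0.036). Chek2, which ATM activates, was the most abundant of the 4 per kilobase, at 23.2 ± 2.42 in FL and 22.6 ± 2.55 in HET.

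In the MRN complex all 3 genes had a lower mean in HET (77.3% of all tested genes), with a median of -0.15, but under median-ratio scaling 1 of 3 was lower and the median was 0.05. Rad50 encodes the coiled-coil subunit that tethers DNA ends. Over FL 1 to FL 5 it measured 28.9, 29.2, 30.0, 24.4 and 17.8 FPKM, against 26.7, 15.8, 17.1, 16.5 and 17.1 over HET 1 to HET 5. The 4 libraries HET 2 to HET 5 lay below every FL library, and HET 1 lay inside the FL range. Its log2 fold change was -0.46 (SE 0.18, limma adjusted p = 0.472), and without FL 5 and HET 1 it was -0.72 with an adjusted p of 0.000252. Mre11a, the nuclease subunit, measured 16.0, 13.1, 14.0, 12.8 and 11.8 FPKM over FL 1 to FL 5, against 16.2, 12.95, 12.2, 11.5 and 8.64 over HET 1 to HET 5. The highest value of all was HET 1 and the lowest HET 5, so that the HET range enclosed the FL range. Mre11a had a log2 fold change of -0.15 (SE 0.16, limma adjusted p = 0.653). Nbn, which brings ATM to the complex, ran from 10.99 to 12.72 FPKM in FL and from 10.84 to 14.02 in HET. Neither Mre11a nor Nbn passed in any alternative, and the difference between the fold change of Rad50 and those of its partners was not tested.

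Genes of the chromatin around a break had a lower mean for all 4 members (77.3% of all tested genes), with a median of -0.31, and for 3 of 4 under median-ratio scaling. H2afx, the histone variant H2AX whose phosphorylation marks breaks, was the most abundant member of the whole set, at 401 ± 37.4 FPKM in FL and 341 ± 76.8 in HET. H2afx belongs to a family of similar histone genes, and its value is uncertain where reads were shared among them. Mdc1, the adaptor that binds the H2AX mark, measured 10.3, 7.70, 8.35, 9.94 and 8.91 FPKM over FL 1 to FL 5, against 10.5, 4.5, 3.87, 4.70 and 7.37 over HET 1 to HET 5. Its 4 libraries HET 2 to HET 5 were below every FL library, while HET 1 was the highest of all 10. For Mdc1 the log2 fold change was -0.55 (SE 0.23, limma adjusted p = 0.472), and -0.74 without FL 5 and HET 1 (adjusted p = 0.00622). Rif1, which acts with 53BP1 to protect ends from resection, measured 13.1, 14.0, 14.0, 10.7 and 10.1 FPKM over FL 1 to FL 5, against 12.9, 7.64, 10.1, 7.81 and 8.93 over HET 1 to HET 5. All HET libraries were below the FL median for Rif1, with the lower FL values meeting the higher HET values. With all libraries its log2 fold change was -0.36 (SE 0.17, limma adjusted p = 0.472), and without FL 5 and HET 1 it was -0.53 (adjusted p = 0.00650). Trp53bp1, which encodes 53BP1 and favors end joining, held 12.1 ± 1.67 and 11.3 ± 4.02 FPKM, with HET 5 at 16.0 the highest of all libraries, and passed with sample quality weights alone (-0.44, limma adjusted p = 0.0393).

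The homologous recombination genes had a median of -0.25, with 4 of 5 lower (77.3% of all tested genes), and 3 of 5 under median-ratio scaling. Blm, the Bloom helicase that dissolves joint molecules, measured 18.6, 18.8, 17.6, 15.7 and 12.8 FPKM over FL 1 to FL 5, against 16.6, 10.6, 13.8, 12.2 and 10.6 over HET 1 to HET 5. Every HET library was below the FL median. For Blm the log2 fold change was -0.37 (SE 0.16, limma adjusted p = 0.472), and -0.55 without FL 5 and HET 1 (adjusted p = 0.00325). Exo1, an exonuclease of end resection and mismatch repair, measured 16.8, 19.0, 19.0, 16.3 and 12.5 FPKM over FL 1 to FL 5, against 16.8, 11.3, 10.8, 15.2 and 10.4 over HET 1 to HET 5. HET 1 and HET 4 lay within the FL range and the other HET libraries below it. Exo1 had a log2 fold change of -0.36 (SE 0.17, limma adjusted p = 0.472), and -0.55 without FL 5 and HET 1 (adjusted p = 0.00608). Brca2, a breast cancer susceptibility gene in people, held 18.5 ± 3.56 and 15.4 ± 2.77 FPKM, and was more abundant per kilobase than Brca1 at 5.14 ± 0.961 and 4.72 ± 0.953. Palb2, the bridge between BRCA1 and BRCA2, held 8.32 ± 1.19 and 8.38 ± 1.66. Of these 3, Brca2 passed without FL 5 and HET 1 (limma adjusted p = 0.0490), and the others in no alternative.

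Usp1 had the largest fold change of the 37 tested members. Usp1 (ENSMUSG00000028560) is at chr4:98923810-98935543 on the plus strand. Over FL 1 to FL 5 it measured 58.3, 51.0, 46.0, 45.3 and 12.4 FPKM, against 24.4, 13.3, 12.6, 11.1 and 8.75 over HET 1 to HET 5. FL 1 to FL 4 were above every HET library, and FL 5 lay among HET 2 to HET 5. The means were 42.6 ± 17.7 FPKM (SD, n = 5) in FL and 14.0 ± 6.04 in HET, or 32.9% of the FL mean, with all 5 HET libraries below the FL median. Usp1 had a log2 fold change of -1.45 (SE 0.39), which lay at -1.29 from the all-gene median, and the limma adjusted p of 0.472 did not pass. Usp1 passed in 3 of 19 alternatives: without FL 5 (-1.84, adjusted p = 0.00564), without FL 5 and HET 1 (-2.05, adjusted p = 4.59e-06) and with sample quality weights (-1.90, adjusted p = 0.000376). All 3 left out FL 5 or gave it a low weight from the same values, so these p-values do not decide the question. Under median-ratio scaling its log2 fold change stayed negative at -1.25.

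Wdr48, the partner that activates USP1, had a smaller fold change. It held 20.5 ± 3.03 FPKM in FL and 18.9 ± 3.97 in HET, with a log2 fold change of -0.12 (SE 0.16, limma adjusted p = 0.699), and -0.31 without FL 5 and HET 1 (adjusted p = 0.0282). The ratio of Usp1 to Wdr48 FPKM was 2.40, 2.34, 2.16, 2.38 and 0.761 in FL libraries 1 to 5 and 0.947, 0.736, 0.698, 0.719 and 0.511 in HET libraries 1 to 5. The ratio exceeded 2 in FL 1 to FL 4 and was below 1 in FL 5 and in all HET libraries. HET 1, which held the highest Wdr48 value of all libraries at 25.7 FPKM, had a ratio of 0.947, nearer to the other HET libraries than to FL 1 to FL 4. Exons of Wdr48 overlap those of Gorasp1 on the opposite strand, and its value may hold reads of Gorasp1. The ratio was not tested.

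**Figure D4:**
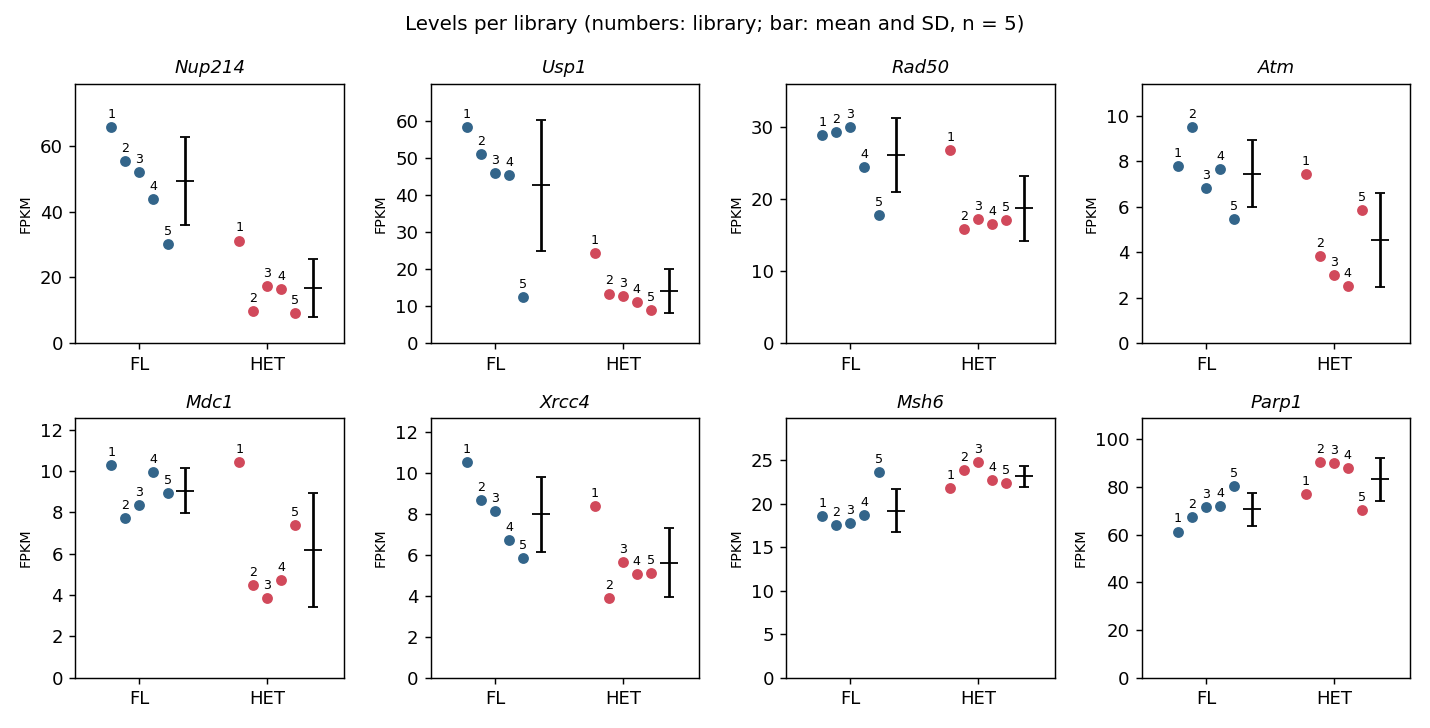
FPKM per library of Nup214 and 7 repair genes, with library numbers beside the points and the mean and SD of each group (n = 5). For Usp1, FL 1 to FL 4 lie between 45.3 and 58.3 and every other library at or below 24.4, while for Msh6 the FL 1 to FL 4 libraries are the lowest.

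Across the 8 members of the Fanconi group, Usp1 and Wdr48 included, 7 had a lower mean in HET (77.3% of all tested genes), with a median of -0.16. Under median-ratio scaling 4 were lower and 4 higher, with a median of 0.04. Fancm, the helicase that anchors the core complex to chromatin, measured 5.96, 4.15, 6.56, 5.77 and 3.05 FPKM over FL 1 to FL 5, against 6.27, 2.47, 3.64, 3.21 and 2.02 over HET 1 to HET 5. FL 5 lay among the HET values and HET 1 among the FL values. Its log2 fold change was -0.46 (SE 0.25, limma adjusted p = 0.476), and -0.79 without FL 5 and HET 1 (adjusted p = 0.00494). Fancd2, which the core complex ubiquitinates, held 7.95 ± 1.81 and 6.72 ± 1.59 FPKM, and its partner Fanci 4.71 ± 0.477 and 4.46 ± 1.14. The ubiquitin ligase gene Fancl held 9.44 ± 1.26 and 8.89 ± 1.80. The core complex genes Fanca and Fancc had FL means of 10.1 ± 0.569 and 8.49 ± 2.14 FPKM and HET means of 10.4 ± 3.12 and 7.14 ± 1.01. Fancd2 passed without FL 5 and HET 1 (-0.45, limma adjusted p = 0.0135), Fancc with sample quality weights (adjusted p = 0.0361), and Fanca, Fanci and Fancl in no alternative.

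Many genes of recombination and of the Fanconi pathway are transcribed as cells enter S phase. A list of 22 cycling genes had 14 lower and 8 higher in HET (77.3% of all tested genes were lower). Its median log2 fold change was -0.05, with 0 past the threshold. Under median-ratio scaling it had 7 lower and 15 higher with a median of 0.16, where 46.5% of all genes were lower. Without FL 5 and HET 1 there were 9 called, 4 lower and 5 higher. In that setting 42.2% of all tested genes were called lower and 3.44% higher. The list was thus split: Mcm3, Mcm4, Mcm6, Pcna and Ccna2 were called higher, and Mki67, Top2a, Ccnb2 and Tyms lower. Its summed level ran from 2235 to 2443 FPKM in FL and from 1905 to 2813 in HET, with none of its genes at 0. Mki67, the proliferation marker, held 16.6 ± 0.992 FPKM in FL and 12.5 ± 1.68 in HET, and the replication helicase gene Mcm6 295 ± 32.5 and 336 ± 40.8. The part of cycling in the levels of these members was not tested.

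Of the 4 tested end joining genes 3 had a lower mean in HET (77.3% of all tested genes), with a median of -0.13, and under median-ratio scaling 2 of 4 were lower with a median of 0.06. Xrcc4, the scaffold of the end-joining ligase, measured 10.6, 8.68, 8.15, 6.75 and 5.83 FPKM over FL 1 to FL 5, against 8.41, 3.91, 5.64, 5.05 and 5.13 over HET 1 to HET 5. HET 2 to HET 5 were below every FL library and HET 1 was within the FL range. The log2 fold change of Xrcc4 was -0.45 (SE 0.20, limma adjusted p = 0.472), and -0.68 without FL 5 and HET 1 (adjusted p = 0.00468). Prkdc, the catalytic subunit of DNA-PK, measured 5.55, 4.88, 5.0, 5.53 and 4.33 FPKM over FL 1 to FL 5, against 4.99, 3.76, 3.75, 3.89 and 4.24 over HET 1 to HET 5. HET 2 to HET 5 were again below every FL library, and HET 1 lay within the FL range. Prkdc had a log2 fold change of -0.24 (SE 0.14, limma adjusted p = 0.480), and -0.35 without FL 5 and HET 1 (adjusted p = 0.0265). The Ku genes Xrcc6 (Ku70) and Xrcc5 (Ku80) had FL means of 65.8 ± 2.85 and 12.9 ± 1.19 FPKM and HET means of 69.1 ± 8.20 and 12.8 ± 2.06. Their proteins form a heterodimer, yet Xrcc6 FPKM was 4.32 to 6.06 times that of Xrcc5 across the 10 libraries. Exons of Xrcc6 overlap those of Desi1 on the opposite strand, and its value may hold reads of Desi1. Those of Xrcc5 overlap no other gene. Lig4, the ligase itself, ran from 0.520 to 1.41 FPKM in FL and from 0.430 to 1.23 in HET and was below the filter.

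Msh6 and Parp1 had the largest positive fold changes of the 5 members with a higher mean in HET. The other members with a higher mean, Xrcc6, Fanca and Palb2, lay between 0.00 and 0.06 on the log2 scale. Msh6, a subunit of the mismatch sensor MutSα, measured 18.6, 17.5, 17.7, 18.6 and 23.6 FPKM over FL 1 to FL 5, against 21.8, 23.9, 24.8, 22.7 and 22.4 over HET 1 to HET 5. All HET libraries were above the FL 1 to FL 4 values, and FL 5 lay within the HET range. Msh6 had a log2 fold change of 0.26 (SE 0.12, limma adjusted p = 0.472), which lay at 0.43 from the all-gene median, and 0.36 without FL 5 and HET 1 (adjusted p = 0.00603). Parp1, the sensor of single-strand breaks, measured 61.3, 67.5, 71.8, 72.1 and 80.3 FPKM over FL 1 to FL 5, against 76.9, 90.6, 90.2, 87.8 and 70.4 over HET 1 to HET 5. HET 2, HET 3 and HET 4 were above every FL library, and HET 5 was below the FL median. Its log2 fold change was 0.23 (SE 0.11, limma adjusted p = 0.472), and 0.31 without FL 5 and HET 1 (adjusted p = 0.0379). These were the 2 members called higher in that setting, where 3.44% of all tested genes were.

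Of the partners of Parp1 in single-strand break repair, Lig3 had a lower mean in HET and Xrcc1 nearly equal means. Lig3, the ligase of this route, measured 14.6, 13.3, 10.7, 11.5 and 8.73 FPKM over FL 1 to FL 5, against 11.9, 9.59, 9.68, 8.51 and 9.91 over HET 1 to HET 5. HET 2 to HET 5 lay below FL 1 to FL 4, and FL 5 lay among them. Lig3 had a log2 fold change of -0.21 (SE 0.16, limma adjusted p = 0.533), and -0.37 without FL 5 and HET 1 (adjusted p = 0.0256). Xrcc1, the scaffold that binds LIG3, was at 50.2 ± 3.08 and 50.6 ± 7.97 FPKM.

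The nucleotide excision repair genes had a lower mean for all 5 members (77.3% of all tested genes), with a median of -0.26, and for 4 of 5 under median-ratio scaling. Ercc1, which forms an incision nuclease with XPF, measured 32.9, 32.5, 27.2, 26.8 and 20.6 FPKM over FL 1 to FL 5, against 33.0, 17.9, 24.2, 21.1 and 14.6 over HET 1 to HET 5. HET 1 was the highest library and FL 5 lay inside the HET range. Its log2 fold change was -0.36 (SE 0.21, limma adjusted p = 0.487), and -0.61 without FL 5 and HET 1 (adjusted p = 0.00755). Ercc2, the XPD helicase of TFIIH, measured 22.6, 19.2, 18.9, 17.1 and 12.5 FPKM over FL 1 to FL 5, against 20.7, 13.4, 15.6, 11.5 and 12.8 over HET 1 to HET 5. FL 5 again lay inside the HET range and HET 1 inside the FL range. Its log2 fold change was -0.27 (limma adjusted p = 0.522), and -0.51 without FL 5 and HET 1 (adjusted p = 0.00606). Xpc, the damage sensor, held 28.1 ± 3.34 and 26.5 ± 7.52 FPKM, with HET 1 at 39.7. Xpa, which verifies the lesion, held 20.8 ± 4.98 and 17.7 ± 7.13, and Ercc5, the XPG nuclease, 5.03 ± 1.24 and 4.06 ± 1.28. All 5 passed downward without FL 5 and HET 1, where 42.2% of all tested genes did.

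Other repair genes, a textbook list of 117 of which 116 were found and 112 tested, had 92 lower and 20 higher (77.3% of all tested genes were lower), a median of -0.18 and 0 calls, with 9 genes at an unadjusted limma p under 0.05. All 9 were lower, where 8.95% of all tested genes were lower and 1.44% higher by that measure. Under median-ratio scaling the list turned to 50 lower and 62 higher with a median of 0.02, where 46.5% of all genes were lower. The numbers of tested genes with a lower mean were 10 of 11 for other Fanconi genes, 14 of 16 for checkpoint, 16 of 17 for recombination, 11 of 13 for end joining, 14 of 18 for base excision, 5 of 6 for mismatch, 14 of 22 for nucleotide excision and 8 of 9 for translesion and reversal genes. Under median-ratio scaling these counts became 5, 7, 8, 10, 6, 2, 5 and 7 in the same order. Rad23b, the partner of XPC, measured 47.0, 44.9, 35.6, 36.9 and 5.21 FPKM over FL 1 to FL 5, against 22.9, 6.56, 9.31, 7.25 and 5.56 over HET 1 to HET 5. Wee1, the kinase that holds back mitotic entry, measured 31.2, 27.0, 24.3, 23.6 and 7.31 FPKM over FL 1 to FL 5, against 17.3, 8.71, 10.3, 7.70 and 8.44 over HET 1 to HET 5. In both genes FL 1 to FL 4 exceeded every HET library and FL 5 did not. Their log2 fold changes were -1.51 (SE 0.58) for Rad23b and -0.96 (SE 0.35) for Wee1, each with a limma adjusted p of 0.472. Without FL 5, Rad23b (adjusted p = 0.0128), Wee1 (0.0114), the ATR activator gene Etaa1 (0.0316) and the Werner helicase gene Wrn (0.0476) passed, 4 of 112, where 3.14% of all tested genes did. Etaa1 held 5.04 ± 2.30 and 2.26 ± 1.06 FPKM and Wrn 13.7 ± 4.43 and 8.22 ± 2.94.

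Of the remaining genes named from these lists, Polq, the polymerase of microhomology-mediated joining, held 3.84 ± 0.908 FPKM in FL and 2.36 ± 0.531 in HET, and the shieldin gene Shld1 7.11 ± 1.81 and 5.18 ± 1.72. Gen1, a resolvase, held 2.81 ± 0.535 and 1.83 ± 0.428, the Fanconi-associated genes Faap20 and Faap100 44.9 ± 7.49 and 15.4 ± 3.31 in FL and 34.5 ± 9.86 and 12.2 ± 2.80 in HET, and Ogg1, the glycosylase for oxidized guanine, 8.71 ± 3.09 and 5.62 ± 2.34. The replicative ligase Lig1 held 65.3 ± 7.35 and 53.0 ± 10.1. The mismatch genes Pms1 and Pms2 had FL means of 6.92 ± 1.69 and 12.6 ± 1.97 and HET means of 5.66 ± 1.69 and 10.3 ± 2.67. The reversal genes Mgmt and Alkbh3 had FL means of 8.06 ± 2.36 and 47.5 ± 5.34 and HET means of 5.52 ± 2.27 and 38.7 ± 12.2. Ercc3, the other helicase of TFIIH, went the other way at 6.22 ± 0.745 and 7.59 ± 0.347, above the FL median in all 5 HET libraries. None of these passed with all 10 libraries (limma adjusted p from 0.472 to 0.563). Bard1, the partner of BRCA1, was below the filter and ran from 0.65 to 1.64 FPKM in FL and from 0.40 to 0.97 in HET. Also below the filter were Fancf (0.88 to 1.06 in FL and 0.48 to 0.92 in HET) and Rad51c (0.57 to 1.03 and 0.31 to 0.72). Neil2 was below it as well (0.07 to 0.49 and 0.01 to 0.18).

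Other differences between the libraries ran alongside these values. In 3 near-equal groups of tested genes by exon length, 23 of the 37 tested members were in the longest, where the median log2 fold change of all genes was -0.20, against -0.14 in the shortest. Neutrophil and progenitor markers were higher in HET for 8 of 8 genes (summed 12188 to 17938 FPKM in FL and 13449 to 22837 in HET), and B and plasma cell markers for 4 of 4 tested (2580.4 to 10861 and 8039 to 101862). Macrophage markers were lower for 3 of 3 (109 to 195 and 35.5 to 203), and erythroid markers had a lower mean log2 value for 4 of 4 (1097 to 1714 and 528 to 2224). Of all tested genes 77.3% were lower. The erythroid direction was not uniform, since HET 2 (2224) and HET 4 (2064) held the highest sums. With sample quality weights 2 erythroid markers were lower and 2 higher. The NK cell genes Ncr1 (0.972 ± 0.369 and 4.46 ± 3.30) and Klrb1c (1.83 ± 0.430 and 4.08 ± 2.14) were higher. With the T cell gene Cd3e, which was below the filter (0.698 ± 0.371 in FL, 0.322 ± 0.376 in HET), their sum ran from 2.46 to 4.99 FPKM in FL and from 2.0 to 16.1 in HET. HSC markers were split, 3 lower and 4 higher of 7 tested (208 to 340.5 and 219.5 to 439). Without FL 5 and HET 1 they were 6 lower and 1 higher, where 82.5% of all tested genes were lower. Cd3e was listed at 0 in HET 2, no other gene of these lists was at 0 in any library, and their part in the repair gene values was not tested. The exons of 21 members, Msh6 (with Fbxo11) and Xrcc6 (with Desi1) among them, overlap those of another annotated gene, mostly on the opposite strand. Since the labels name no strand marking, reads of such pairs cannot be told apart.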

How the data were processed

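Per the labels' protocols, a miRNeasy kit gave the RNA of sorted HSCs, Geo-seq its amplified cDNA, and TruePrep V2 the libraries. The authors deposited FPKM per Ensembl gene for 52096 genes in 10 libraries. The submitters' processing notes name mm10, Cufflinks 2.1.1, DESeq2, HTSeq and Bowtie 0.12.9 and leave their roles unstated. Column sums ran from 896054 to 1066190 FPKM. Read totals were not used here, so no counting interval is given. The lower quartile of the low values of short coding genes, as FPKM times kilobases, ran from 0.0437 in FL 4 to 0.106 in HET 3, and whole reads were not recovered from it. No pair of libraries shared more than 0.767% of tested values.

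All identifiers matched GENCODE M21 (GRCm38), used for symbols and coordinates. Genes reaching 1 FPKM in 5 or more of 10 libraries (13041) were compared as log2(FPKM + 1) by limma 3.58.1 in R 4.3.3. The model had genotype alone, with trend and robust shrinkage, and p-values were adjusted by Benjamini-Hochberg (threshold 0.05). The code was tested on simulated data. Errors are SD over libraries unless an SE is named. Members, lists, tests and alternatives were chosen with earlier results of these data known. The 17 members given library by library are those with the 2 smallest p in each role group, and 16 other repair genes are named as the 2 with the smallest p of each list. Other repair genes below the filter are named with their ranges. The ratios, Mki67, Mcm6 and the 6 promoters were chosen after their values were seen. Of the other repair genes, 1 symbol was misspelled and not matched, so that the checkpoint gene Clspn was left out. Alternatives covered the pseudocount, the filter, 2 scalings, shrinkage, sample weights, a replicate block and left-out libraries. Python 3.11.15, pandas 2.3.3 and matplotlib 3.10.9 were used for tables and plots.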

Additional observations from a re-analysis of the deposited data

Results flagged for a closer look

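In a group of 5 libraries, a value was singled out where its gap to the nearest other library was above 0.710 of the group's range (Dixon's 95% limit). Chance gives about 1 in 20 groups, and 8 of 78 groups of the 38 members and Nup214 were singled out. HET 1 was the highest HET library by this measure for 5 genes, with 26.72 FPKM of Rad50, 14.02 of Nbn, 25.74 of Wdr48, 39.67 of Xpc and 29.81 of Xpa. FL 5 was singled out for 2 genes, as the lowest FL library for Usp1 at 12.38 FPKM and as the highest for Msh6 at 23.58 FPKM. The remaining value was Brca2 in FL 2, at 24.58 FPKM. Groups are not independent, since HET 1 and FL 5 stood apart in most members.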

How the results depend on the processing

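With all 10 libraries 0 of 13041 tested genes, 0 of 37 members and 0 of 112 other repair genes passed. The counts for all genes, members and other repair genes were 6869, 23 and 67 with sample quality weights, and 5954, 22 and 60 without FL 5 and HET 1. Both settings were derived from the tested values, and their counts are descriptive. With 1 library left out in turn they ran from 0 to 409, from 0 to 1 and from 0 to 4, with the highest counts without FL 5. Under median-ratio scaling 1 gene passed, no member. The log2 fold change of Nup214 was -1.59, ran from -1.84 to -1.42 with 1 library left out, and passed at -1.76 without FL 5, -1.96 with weights and -2.0 without FL 5 and HET 1. The library numbers of the labels did not pair the libraries: correlations of same-numbered deviations ran from -0.172 to 0.230, and 2 of 5 FL libraries were closest to their own number. With a replicate block 0 genes passed, and the log2 fold change of Nup214 was -1.59.

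Directions turned for the members below, of which Wdr48, Xpc and Trp53bp1 passed in another alternative. Median-ratio scaling turned Chek2 (0.169), Mre11a (0.053), Nbn (0.181), Trp53bp1 (0.0531), Brca1 (0.0777), Fanci (0.0852), Fancl (0.108), Wdr48 (0.0843), Xrcc5 (0.176), Xrcc1 (0.212) and Xpc (0.0999) to higher. Palb2 turned to -0.000964 with a pseudocount of 0.1, -0.0082 in rescaled protein-coding genes, -0.0954 with weights and -0.09 without FL 5 and HET 1, and Fanca to -0.00234 in rescaled protein-coding genes and -0.013 with weights. With 1 library or the pair of FL 5 and HET 1 left out, Nbn ran from -0.106 to 0.00868, Palb2 from -0.09 to 0.0717, Fanca from -0.139 to 0.0751, Fanci from -0.224 to 0.0143, Xrcc5 from -0.124 to 0.0305, Xrcc6 from -0.00125 to 0.107 and Xrcc1 from -0.0846 to 0.0797. The cause of these changes was not tested. Depth is unknown, and low genes such as Lig4 limit what can be compared.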
